A study of Mus musculus with 6 samples.

Results

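The Zfp genes, which carry mouse symbols of the form Zfp followed by a number, encode zinc finger proteins. They were examined in mouse multiple myeloma cells kept without or with insulin-like growth factor 1 (IGF-1). Members were all genes whose array annotation gave such a symbol, each represented by its brightest probe set over the 6 arrays. A probe set is a group of array probes read together as 1 signal. This gave 173 of 12393 named genes, measured by 254 probe sets. Of these, 81 genes had a mean signal of 50 or more and 92 were dimmer and were kept apart. Brightness was the mean over all arrays of both groups. Zfp932 was selected on its measured difference between IGF-1 and control arrays, so that difference is given as a description, without a test.

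The cells were labelled as malignant plasma cells from multiple myeloma of the bone marrow and were cultured for 12 h in serum-free medium. The 3 control samples had no IGF-1 and the 3 IGF-1 samples had 100 ng/ml, so both groups shared the removal of serum. The labels name no mouse strain, cell line or animal, and do not say that the replicates were separate cultures, so each p-value reflects only how far these samples scatter, and that scatter may be technical. RNA was hybridised to 1-colour Affymetrix arrays, with 1 signal per probe set and array.

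Most zinc finger proteins of this name hold arrays of C2H2 fingers, short loops folded around a zinc ion that read DNA bases. Many also hold a KRAB domain, which recruits the co-repressor TRIM28 (KAP1) and, through it, SETDB1 and heterochromatin proteins that silence retroelements and imprinted regions. The name covers other kinds too, such as the CCCH finger proteins of the Zfp36 family, which bind AU-rich stretches of messenger RNA and recruit the CCR4-NOT deadenylase. KRAB genes lie in clusters of related copies, so a probe set can also pick up a close relative.

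The 250 bases before the transcription start are shown for Zfp932 and for the 3 other genes whose fall stayed past the threshold with each array left out in turn (Zfp36, Zfp292 and Zfp281). They are from RefSeq, build GRCm38.p6, each 5′ to 3′ on the strand of its gene. The windows are chr5:109996260-109996509 (plus strand), chr7:28379229-28379478 (minus), chr4:34882949-34883198 (minus) and chr1:136624651-136624900 (plus). Capitals mark matches, on either strand, to the E-box CACGTG, the CCAAT box, the GC box GGGCGG, the EGR site GCGGGGGCG, the FOXO site GTAAACA and the CArG box.
Zfp932: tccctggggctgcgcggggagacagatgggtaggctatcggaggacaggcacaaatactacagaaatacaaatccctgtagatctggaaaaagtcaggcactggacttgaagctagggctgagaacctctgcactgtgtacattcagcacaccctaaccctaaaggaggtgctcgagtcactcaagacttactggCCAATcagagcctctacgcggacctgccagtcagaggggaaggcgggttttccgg
Zfp36: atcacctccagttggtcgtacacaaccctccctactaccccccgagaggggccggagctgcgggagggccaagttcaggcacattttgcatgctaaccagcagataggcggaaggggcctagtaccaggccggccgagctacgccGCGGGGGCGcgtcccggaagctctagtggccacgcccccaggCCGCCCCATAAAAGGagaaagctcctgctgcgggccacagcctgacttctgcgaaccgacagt
Zfp292: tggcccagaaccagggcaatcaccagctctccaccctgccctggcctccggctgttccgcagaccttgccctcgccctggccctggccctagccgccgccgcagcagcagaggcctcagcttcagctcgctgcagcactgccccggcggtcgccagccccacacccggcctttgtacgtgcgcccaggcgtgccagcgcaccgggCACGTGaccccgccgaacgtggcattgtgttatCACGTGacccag
Zfp281: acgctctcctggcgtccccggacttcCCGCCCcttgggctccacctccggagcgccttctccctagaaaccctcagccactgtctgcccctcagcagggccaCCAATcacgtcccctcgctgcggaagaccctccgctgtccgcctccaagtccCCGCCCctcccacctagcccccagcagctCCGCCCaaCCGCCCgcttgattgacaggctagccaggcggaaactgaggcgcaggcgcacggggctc

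The window of Zfp932 held 1 CCAAT box and none of the other 5 motifs. That of Zfp36 held a CArG box, an EGR site and a GC box, the last sharing 1 base with the CArG box. That of Zfp292 held the E-box CACGTG 2 times, and that of Zfp281 held 4 GC boxes and a CCAAT box. Among the first listed windows of 27025 genes, 6.05% held the E-box, 34.5% the CCAAT box, 32.9% the GC box, 2.56% the EGR site, 3.09% the FOXO site and 1.40% the CArG box. Among the 67 brighter Zfp genes with a window, 5.97% held the E-box, 47.8% the CCAAT box, 58.2% the GC box, 2.99% the EGR site, 1.49% the FOXO site and 2.99% the CArG box. The Zfp windows had a median GC content of 57.2% against 52% for all windows. The windows of all genes were not limited by signal, while the 67 Zfp genes were, so the sets are not alike. A match is a run of letters, not a bound site.

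Zfp932, a KRAB zinc finger gene whose protein is known to bind and silence endogenous retroviruses, was measured by 1 probe set. Its signals were 268, 297 and 265 in the control arrays and 69.6, 35.0 and 46.9 in the IGF-1 arrays. Every IGF-1 array lay far below every control array. The mean went from 277 ± 17.7 to 50.5 ± 17.6 (SD, n = 3 here and below), a ratio of 5.48. The log2 difference was -2.18 ± 0.17 (SE), on the scale of log2(signal + 15.6), which understates changes of dim transcripts. It ranked 1 from the bottom among the 7099 genes tested, which is why it was picked. In the RefSeq gene order its nearest measured relative on chromosome 5 was Zfp605, with 3 protein-coding genes between. Zfp605 was dim, at 36.3, 36.5 and 44.2 in controls and 29.7, 32.1 and 20.5 with IGF-1, and its groups did not overlap.

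Among the other 80 brighter Zfp genes, 9 fell with IGF-1, 0 rose and 71 did not pass the test (limma over 11684 probe sets, adjusted p under 0.05). They were Zfp281, Zfp36, Zfp617, Zfp51, Zfp292, Zfp101, Zfp871, Zfp36l2 and Zfp651, with log2 differences from -0.64 to -0.37. The share that fell was 11.25%, against 7.82% of all genes tested, and 6.8% of all genes rose. At an unadjusted p under 0.05 the same 80 genes gave 18 lower (15.8% of all genes tested) and 0 higher (14.1% of all genes). In all 3 IGF-1 arrays the signal was below every control array for 24 of the 80 genes (18.0% of all genes tested) and above every control array for 2 (16.7% of all genes). In bulk RNA, fewer cells of a type and less RNA per cell cannot be told apart.

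**Figure D1:**
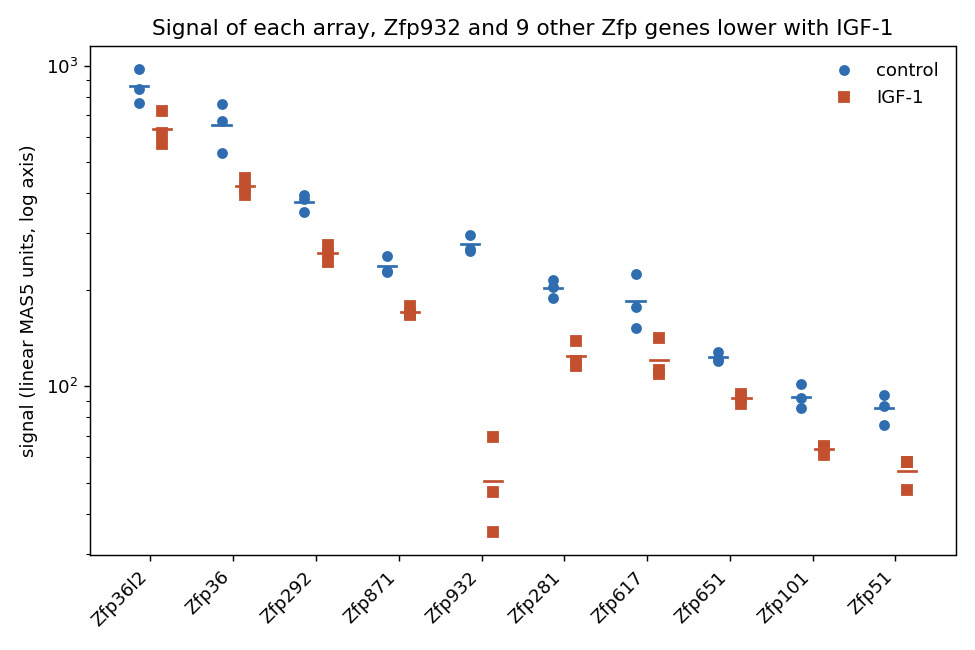
Signal of each array (vertical, linear MAS5 units on a log axis) for Zfp932, which is described without a test, and the 9 other Zfp genes past the threshold, in order of brightness. Circles are control arrays, squares are IGF-1 arrays and short lines are means of 3. No IGF-1 array reaches a control array of the same gene, and the gap is widest for Zfp932 (277 against 50.5).

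The median log2 difference of the 81 brighter Zfp genes was -0.15, with quartiles at -0.30 and 0.02. For all 7099 genes it was -0.01, with quartiles at -0.19 and 0.16. Differences were below 0 for 58 of 81 Zfp genes (71.6%) and for 51.4% of all genes. With Zfp932 left out, since it was selected on its difference, the median was -0.14 and 57 of 80 were below 0 (71.25%). When the arrays were scaled to the hybridization controls, RNAs added in known amounts, the median of all genes moved to 0.25 and that of the Zfp genes to 0.11, so that 25 of 81 were below 0 (18.2% of all genes). The Zfp median thus turned positive under that scaling and stayed 0.14 below the median of all genes under both. None of the 9 falls passed limma under that scaling, although all 9 differences stayed negative. Of the 80 genes 0 then fell (2.00% of all genes) and 2 rose, Zfp395 and Zfp598 (23.8% of all genes). At an unadjusted p under 0.05, 1 was lower (at least 2.00% of all genes) and 12 were higher (at least 23.8% of all genes). These 2 shares are those at an adjusted p under 0.05, so they are only lower bounds. The shares of all genes at an unadjusted p were not counted under that scaling. Across arrays the median signal of the 81 genes was 117, 99.5 and 111 in controls and 99.4, 105 and 103 with IGF-1, so these medians overlapped between groups.

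**Figure D2:**
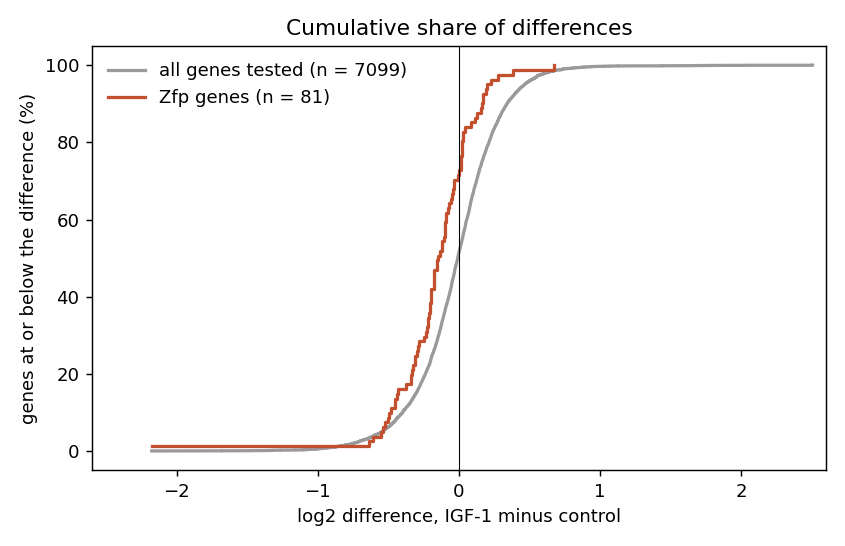
Cumulative share of genes (vertical, percent) by log2 difference between IGF-1 and control arrays (horizontal), for the 81 brighter Zfp genes and the 7099 genes tested. The Zfp curve, which includes Zfp932, crosses 0 at 71.6% of its genes and the curve of all genes at 51.4%.

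Of the CCCH finger genes of messenger RNA decay, 2 of 3 measured members fell (7.82% of all genes tested). Zfp36, which encodes tristetraprolin, gave 534, 670 and 760 in the control arrays and 396, 416 and 448 in the IGF-1 arrays. Every IGF-1 signal was below the lowest control, although control 1 stood closer to them than the other controls did. Mean signals were 654 ± 114 without and 420 ± 26.2 with IGF-1, and the log2 difference of -0.61 ± 0.13 passed the test (adjusted p = 0.012). Zfp36l2 gave 847, 764 and 976 in controls and 617, 569 and 724 with IGF-1, again without overlap. Its log2 difference was -0.43 ± 0.12 (adjusted p = 0.038). A dimmer tested probe set of Zfp36l2 differed by 0.03 ± 0.14, with overlapping groups, and the brighter one lost its call in 4 of the 6 fits that left out an array, all but those without control 2 or IGF-1 3 (highest adjusted p 0.139).

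Zfp36l1, the remaining CCCH member, gave 425, 275 and 392 in controls and 326, 330 and 340 with IGF-1. Its groups overlapped and it did not pass (-0.11 ± 0.14, adjusted p = 0.675). Its other probe set was lower in every IGF-1 array, at 226, 245 and 234 in controls and 168, 212 and 201 with IGF-1, and did not pass either (-0.26 ± 0.11, adjusted p = 0.145). Over 14 tested genes of the CCR4-NOT and decapping machinery with which these proteins work, the median was -0.02. Among these 14, 2 rose (6.8% of all genes tested), 2 fell (7.82%) and 10 did not pass. Those that rose were Cnot3, a CCR4-NOT subunit, from 179 ± 27.7 to 248 ± 4.27, and Tob1, an antiproliferative protein that binds the deadenylase, from 167 ± 17.2 to 266 ± 32.8. Those that fell were Pan2, a poly(A) nuclease subunit, from 112 ± 16.4 to 62.6 ± 12.8, and Btg1, a growth-restraining partner of the deadenylase, from 851 ± 239 to 432 ± 135.

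Of the chromatin and promoter regulators, 1 of 10 tested members fell (7.82% of all genes tested) and 9 did not pass. Zfp281, a C2H2 factor that binds GC-rich promoters, gave 204, 188 and 214 in controls and 138, 120 and 116 with IGF-1. The groups stood well apart. Mean signals were 202 ± 13.2 without and 125 ± 12.0 with IGF-1, and the log2 difference was -0.64 ± 0.11 (adjusted p = 0.0058). A dimmer probe set of the same gene was also lower in every IGF-1 array but did not pass (-0.33 ± 0.15, adjusted p = 0.17). Zfp148, a related GC-box binding factor, lay lower in every IGF-1 array in its brightest probe set without passing (-0.30 ± 0.10, adjusted p = 0.078). The remaining members ranged from -0.28 for Zfp740 to 0.17 for Zfp131. Between these lay Zfp644 (-0.22), the SUMO ligase gene Zfp451 (-0.12), the ubiquitin ligase gene Zfp91 (-0.06), Zfp64 (0.01), Zfp410 (0.02) and Zfp219 (0.02).

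Zfp292, which encodes a large C2H2 protein, fell in most of its probe sets. Its brightest probe set gave 395, 383 and 348 in controls and 244, 260 and 276 with IGF-1. The groups did not overlap, and the log2 difference was -0.51 ± 0.10 (adjusted p = 0.0092). Of its 4 tested probe sets, 3 fell, by 0.53, 0.51 and 0.44, and the dimmest did not pass (-0.21 ± 0.12, adjusted p = 0.27).

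The other genes that fell were C2H2 members for which no role was listed. Zfp871 gave 254, 227 and 230 in controls and 178, 168 and 166 with IGF-1 (-0.44 ± 0.10, adjusted p = 0.019). Zfp617 gave 225, 152 and 176 in controls and 141, 109 and 112 with IGF-1 (-0.54 ± 0.15, adjusted p = 0.040). Zfp651 gave 120, 128 and 122 in controls and 94.8, 92.5 and 88.2 with IGF-1 (-0.37 ± 0.11, adjusted p = 0.0497). Controls lay above IGF-1 arrays without overlap in these 3, most narrowly in Zfp617. Zfp101 gave 101, 91.7 and 85.6 in controls and 60.9, 64.9 and 65.3 with IGF-1 (-0.45 ± 0.13, adjusted p = 0.040). Zfp51 gave 86.8, 93.8 and 75.8 in controls and 57.9, 47.6 and 58.2 with IGF-1 (-0.53 ± 0.14, adjusted p = 0.033). Neither pair of groups overlapped. A dim probe set of Zfp101 pointed the same way, at 31.5, 35.3 and 30.0 against 12.8, 8.35 and 10.1.

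These calls were less firm than those of Zfp36, Zfp281 and Zfp292. Zfp651 and Zfp101 lost theirs without any 1 of the 6 arrays (highest adjusted p 0.143 and 0.107). Zfp51 lost its call without any array but control 3 (highest adjusted p 0.111). Zfp617 kept its call only without control 2 or without IGF-1 1 (highest adjusted p 0.126). Zfp871 lost its call when control 1, IGF-1 2 or IGF-1 3 was left out (highest adjusted p 0.0645). Of the 80 genes, 3 fell without control 1 or without IGF-1 2, 4 without IGF-1 3 and 5 without control 3, against 9 with all arrays. The share of all genes that fell was then between 4.06% and 6.87%.

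**Figure D3:**
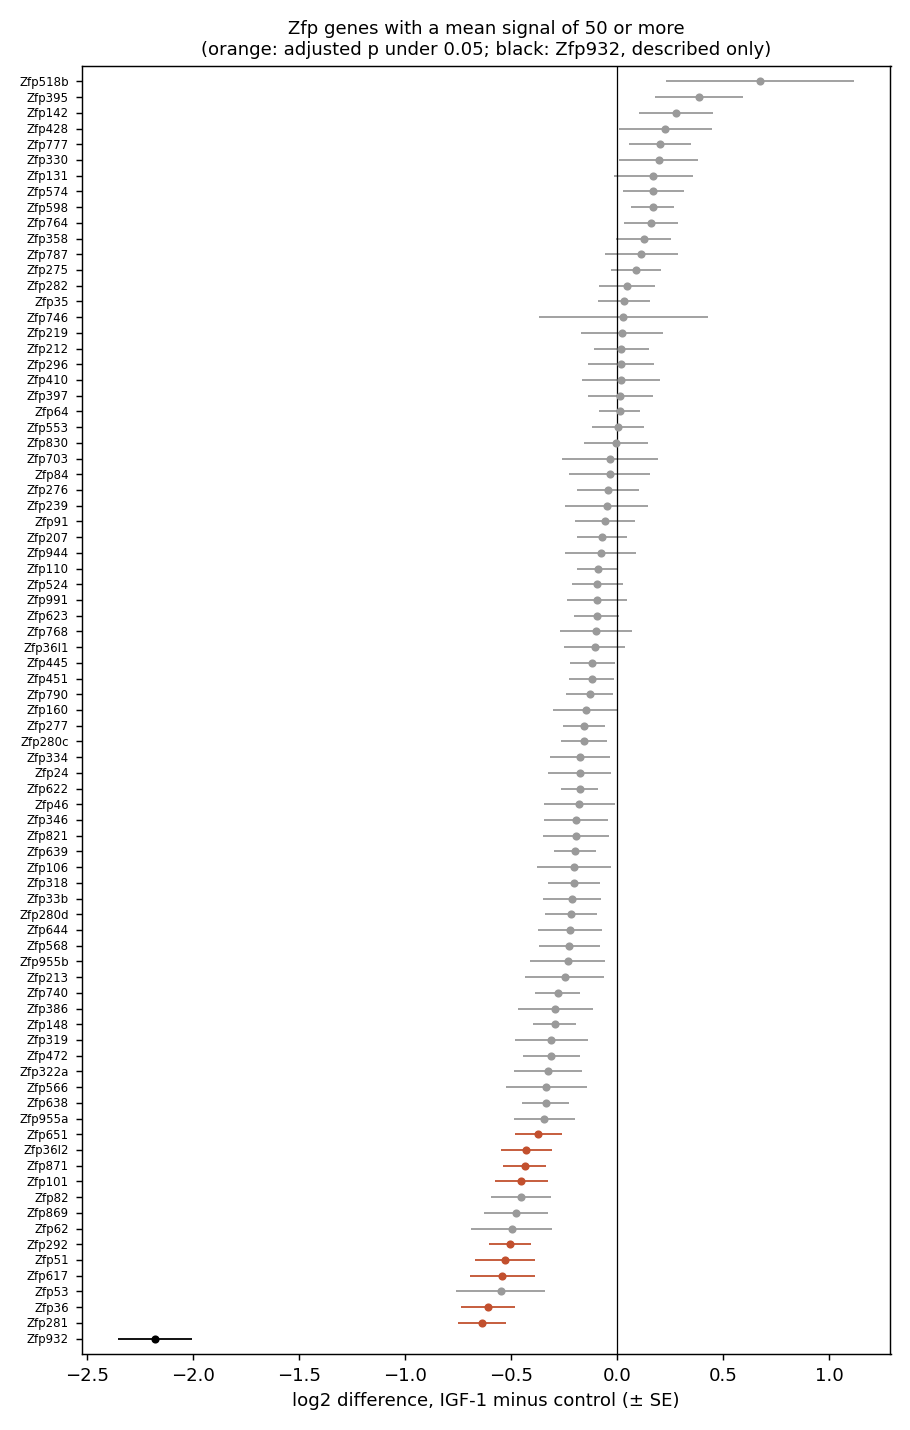
Log2 difference between IGF-1 and control arrays (horizontal, with SE) for each of the 81 Zfp genes with a mean signal of 50 or more, in order of size. Apart from Zfp932 at -2.18 (black) the values run from -0.64 (Zfp281) to 0.67 (Zfp518b). The 9 other genes past the threshold (orange) are all on the lower side.

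Of 3 tested genes known for silencing retroelements and imprinted loci, neither of those beside Zfp932 passed. Zfp445, a guardian of imprints, differed by -0.12 ± 0.11 in its brightest probe set. Its other probe set was lower in every IGF-1 array, at 135, 125 and 139 in controls and 107, 97.7 and 91.1 with IGF-1 (-0.38 ± 0.12, adjusted p = 0.052). That probe set passed (adjusted p = 0.049) when probe sets with a letter suffix, the brightest of Zfp445 among them, were left out. Such names end in _a_at, _s_at or _x_at, for example, and the suffix alone does not show cross-hybridization. Zfp568, a KRAB protein known to repress a placental transcript of Igf2, differed by -0.23 ± 0.14. Zfp57, which protects methylated imprints, had a mean signal of 3.43 and was among the dim genes. Over 12 tested genes of the KRAB co-repressor machinery the median was 0.17. Among these 12, 1 rose (6.8% of all genes tested), 1 fell (7.82%) and 10 did not pass. Cbx5, which encodes the heterochromatin protein HP1 alpha, rose from 181 ± 40.6 to 341 ± 35.6 (0.87 ± 0.15, adjusted p = 0.0051). Trim24, a relative of the KRAB co-repressor, fell from 763 ± 42.4 to 519 ± 65.6 (-0.55 ± 0.11, adjusted p = 0.0092). Trim28 itself did not pass, with a difference of 0.22 ± 0.09 (adjusted p = 0.135), nor did Setdb1, the histone methyltransferase it recruits (-0.18 ± 0.13).

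None of 6 tested members that act on RNA or ribosomes passed. Zfp622, a factor of large ribosomal subunit maturation and the brightest member, gave 1200, 1271 and 1197 in controls and 1081, 1147 and 1015 with IGF-1. Its groups did not overlap, but the difference of -0.18 ± 0.09 did not pass (adjusted p = 0.20). Zfp598, the ubiquitin ligase that senses collided ribosomes, was 1 of the 2 genes with every IGF-1 array above every control, at 409, 456 and 406 against 395, 387 and 344. It did not pass either (0.17 ± 0.10, adjusted p = 0.30). The others were Zfp638 (-0.34), Zfp106 (-0.20), Zfp346 (-0.19) and Zfp830 (-0.01). Among lymphoid genes, Zfp318, which mature B cells need for IgD, had a difference of -0.20 ± 0.12 (adjusted p = 0.31). Zfp521 and Zfp423, which act in early B and other progenitors, had mean signals of 6.87 and 1.01.

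Zfp207, whose protein loads the checkpoint factor BUB3 at kinetochores, depended on the probe set. Its brightest probe set gave 525, 676 and 658 in controls and 527, 615 and 617 with IGF-1, with no call (-0.07 ± 0.12, adjusted p = 0.73). Another, with a mean signal of 446 against 603, gave 541, 630 and 550 in controls and 330, 330 and 296 with IGF-1. The groups of that probe set lay far apart (-0.82 ± 0.10, adjusted p = 0.00099), and the dimmest tested probe set did not pass (-0.12 ± 0.13).

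Zfp574 was the only member with a probe set that rose. That probe set was at 15.6, 80.1 and 15.3 in controls and 138, 101 and 85.4 with IGF-1. Control 2 stood apart from the other controls, close to the lowest IGF-1 array, and the difference was 1.43 ± 0.38 (adjusted p = 0.031). The control mean was 37.0, so this probe set reached the minimum signal of 50 only through the IGF-1 arrays, at a mean of 108. The brightest probe set of Zfp574 overlapped between groups (0.17 ± 0.14, adjusted p = 0.47), and its dimmest did not pass (0.34 ± 0.16, adjusted p = 0.17). Over the 23 genes with several tested probe sets, all probe sets were lower in 17, all were higher in 1 and signs differed in 5 (Zfp280d, Zfp346, Zfp36l2, Zfp410 and Zfp64). Calls differed between probe sets in 5 (Zfp207, Zfp281, Zfp292, Zfp36l2 and Zfp574).

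**Figure D4:**
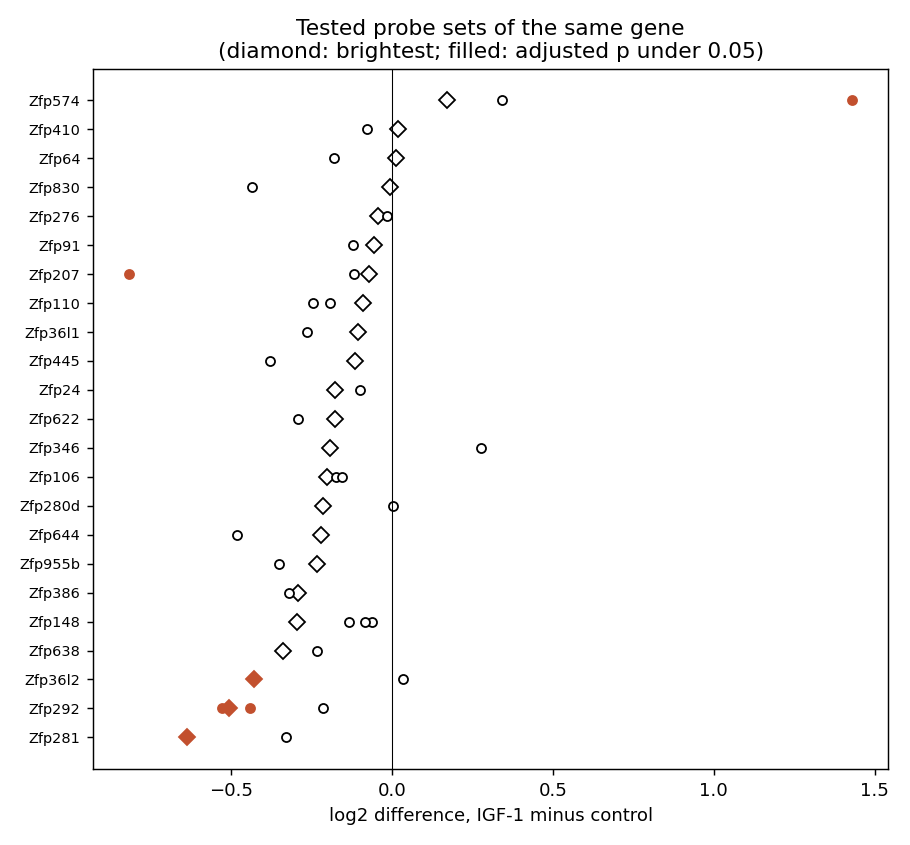
Log2 difference between IGF-1 and control arrays (horizontal) of each tested probe set, for the 23 Zfp genes with several. Diamonds are the brightest probe set of a gene, circles the others, and filled symbols passed the threshold. Zfp207 and Zfp574 each have a dimmer probe set far from the brightest, at -0.82 and 1.43.

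The members were spread over 19 chromosomes in the RefSeq gene table, with 41 on chromosome 7, 25 on chromosome 17 and 18 on chromosome 8. On chromosome 17, 12 of 13 brighter members were below 0 (51.4% of all genes tested) and the median was -0.31. Of these 13, 4 fell (Zfp36l2, Zfp871, Zfp101 and Zfp51), against 7.82% of all genes. These calls were lost in 4, 3, 6 and 5, in that order, of the 6 fits that left out an array. On chromosome 7, 9 of 15 were below 0, 1 fell (Zfp36) and the median was -0.09. On chromosome 8, 6 of 8 were below 0, 1 fell (Zfp617) and the median was -0.12. Chromosome 6 had 2 of 6 below 0 and a median of 0.02. Chromosome 17 was singled out after its values were seen and was not tested. Zfp51 lay directly between Zfp54 and Zfp53. Zfp53 gave 51.4, 69.3 and 83.1 in controls and 35.9, 58.4 and 31.4 with IGF-1, with overlap and no call (-0.55 ± 0.21, adjusted p = 0.11). Zfp54 was dim, at 27.6, 14.1 and 29.7 against 30.6, 24.7 and 27.4. Zfp81, directly beside Zfp101, had a mean signal of 3.13.

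**Figure D5:**
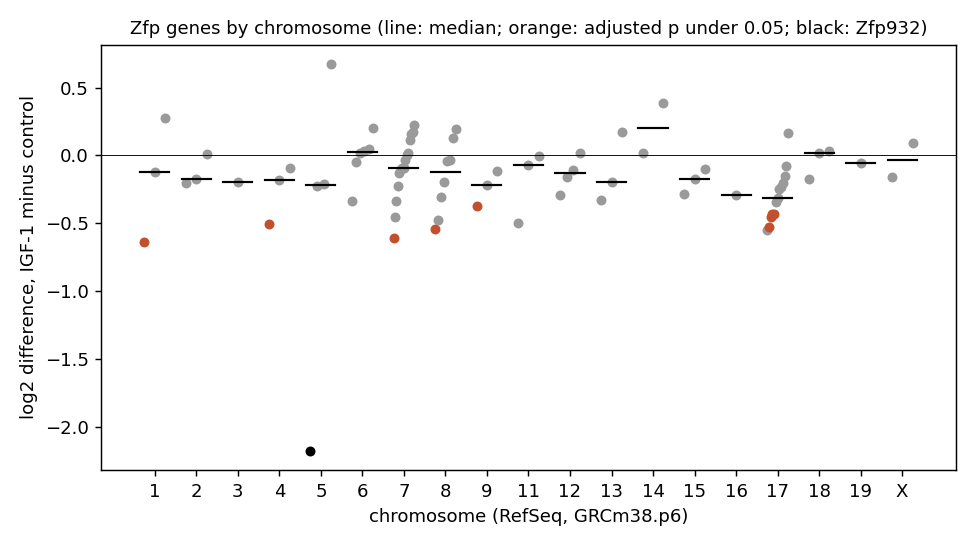
Log2 difference between IGF-1 and control arrays (vertical) of the 81 brighter Zfp genes by chromosome (horizontal). Points are genes, black lines are medians, orange points passed the threshold and the black point is Zfp932. On chromosome 17, 12 of 13 points lie below 0, and 58 of the 81 do so in all.

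Brightness differed widely among the members. The 81 brighter genes ran from 50.1 to 1152 with a median of 108, against 184 for all genes tested, and 21 of them reached 200 or more. In the brighter 41 of the 81 the median log2 difference was -0.12, and 7 of the 40 beside Zfp932 fell. In the dimmer 40 it was -0.18 and 2 fell. Over all genes split at the same signal, 9.28% and 4.33% fell. Among the 10 brightest members 3 fell (7.82% of all genes tested), Zfp36l2, Zfp36 and Zfp292. Zfp330 (0.20 ± 0.19) was the 1 brightest member not yet described. Spread between arrays was similar in both groups, with a median SD of log2 signals of 0.16 in each. Zfp518b had the widest spread in controls, at 83.9, 6.72 and 58.2 against 93.5, 62.8 and 62.1 with IGF-1, so its difference of 0.67 ± 0.44 rested on control 2. Zfp746 was widest with IGF-1, at 77.7, 20.03 and 60.4, against 96.7, 30.0 and 30.8 in controls.

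The 92 dim genes had mean signals from 0.577 to 48.3, and 50 of them were under 20. Just above the limit of 50 were Zfp944 (51.3), Zfp566 (50.8) and Zfp319 (50.1), and just below it were Zfp593 (48.3), Zfp362 (47.8) and Zfp87 (45.8). Without the filter on dim probe sets, limma called 0 of the 92, with 6 lower and 5 higher at an unadjusted p under 0.05 (3.53% and 4.19% of all 5294 genes under 50). Their median log2 difference was -0.00 and 73 of them overlapped between groups, while 13 were lower and 6 higher in every IGF-1 array (6.06% and 6.33% of all genes under 50). Zfp593, a factor of ribosome maturation, was higher in every IGF-1 array, at 51.4, 56.4 and 57.6 against 42.1, 41.7 and 40.6. Among the dim genes were an antisense transcript, Zfp85os, and a pseudogene, Zfp353-ps. Of the 81 brighter genes, 7 had 1 group mean under 50, and 0 of these passed. Another 6 Zfp symbols were found only on probe sets that carry several symbols and were not analysed here.

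Other zinc finger families were read from the same fit for comparison, with no test of the difference between families. For reference, 6.8% of all genes tested rose and 7.82% fell. Of 14 tested Zbtb genes 1 rose (Zbtb7b, from 95.6 ± 6.33 to 158 ± 11.6) and 1 fell (Zbtb20, from 226 ± 35.1 to 115 ± 13.1), with a median of 0.01. Of 7 Zscan and Zkscan genes 0 passed, with a median of -0.08. Of 8 Klf genes 1 rose (Klf16) and 2 fell, with a median of -0.21. The falls were Klf7, from 320 ± 15.3 to 219 ± 14.9, and Klf6, from 497 ± 73.2 to 350 ± 35.6. None of 6 Zc3h genes passed (median -0.08), and of 11 Zdhhc genes, whose zinc motif serves palmitoylation, 1 fell (median 0.01).

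Arrays of the same group correlated at 0.982 to 0.984 over all probe sets on the log2 scale, and arrays of different groups at 0.972 to 0.979. Plasma cell markers were present (8 of 10 on the array, all above 50), with summed signals of 12651 to 13764 in controls and 11760 to 12250 with IGF-1, and 2 of them fell. Markers of neutrophils were also bright (9 of 9 above 50), at 25112 to 29987 in controls and 23301 to 25932 with IGF-1, and 1 fell. Those of macrophages (6 of 8 above 50) summed to 5401 to 7087 and 4659 to 6404, with 2 lower and 1 higher. Lyz2, with a mean signal of 3828, dominated that sum and did not pass. Csf1r fell from 671 ± 185 to 317 ± 55.6 and Cd14 from 294 ± 77.0 to 162 ± 55.2. Cd68 rose from 935 ± 52.9 to 1249 ± 43.1. T cell markers (0 of 4 above 50) summed to 83.9 to 120 and 84.3 to 103, and the 1 erythroid marker measured, Alas2, did not pass. Zfp36 and Zfp36l2 are also expressed in myeloid cells, and the part of such cells in the differences was not tested.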

How the data were processed

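Total RNA was labelled by oligo-dT priming, per the labels' protocols, so signals lean towards the 3′ end of transcripts. What the authors deposited is a linear intensity (MAS5 signal) for each probe set on each array. MAS5 and GCOS are named in the submitters' processing notes, without versions. Leaving out the 2% of signals at either end, the mean was 150.1 for each array, which shows that arrays were scaled to a common level. Differences are therefore relative to overall RNA output. Median signals were 49.96 to 55.4, and precision is limited by having 3 arrays a group.

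Of 22690 probe sets, 64 controls were left out, 20380 carried 1 symbol, 691 several and 1555 were unnamed. Gene IDs of 20351 matched RefSeq (GRCm38.p6), which changed 0 symbols. Probe sets with a mean signal of 50 or more were tested as log2(signal + 15.57), the 25th percentile of all signals, with limma 3.58.1 in R 4.3.3 (lmFit, eBayes with intensity trend, two-sided, Benjamini-Hochberg over 11684 probe sets). The minimum of 50 was used so that every brighter member was tested.

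The fit was tested on simulated data in which 200 of 11684 probe sets were changed. There it called 43.65% of log2 changes of 0.5 and 98.45% of changes of 1. Of its calls there, 6.67% were unchanged probe sets. A gene without a call may therefore still differ by such an amount as 0.5. In the real arrays 14.6% of genes passed, a larger share than was changed in the simulation. The simulated rates therefore need not hold for the real arrays. Promoters were matched by gene ID (139 of 173 members). The members and lists were chosen with earlier results of these data known. Named genes were Zfp932, all members past the threshold, the 10 brightest, listed-role members above 50, those nearest 50, and genes whose probe sets disagreed. The replicate numbers were not used as pairs in the main fit. Python 3.11.15 (pandas 2.3.3, matplotlib 3.10.9) read tables and drew plots.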

Additional observations from a re-analysis of the deposited data

How the results depend on the processing

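Zfp932 left out, the count of Zfp genes that fell (9) was 4 without the filter on dim probe sets, 0 with scaling to the hybridization controls and 2 of 23 with the next brightest probe set. With 1 array left out it ran from 3 to 7. It was 6 to 11 with the other alternatives. The count that rose (0) was 2 with the hybridization controls (Zfp395 and Zfp598), where 23.8% of all genes rose. It was 1 (Zfp574) with letter-suffix probe sets left out, with the mean of probe sets per gene and with the next brightest probe set. All genes rose in 6.71%, 7.28% and 6.80%, the last by brightest probe set. Each of these 3 counts drew on the Zfp574 probe set that reached 50 only through the IGF-1 arrays. With 1 array left out it was 0 in each fit. The median over Zfp genes reversed to 0.11 with the hybridization controls, where that of all genes was 0.25. The difference of Zfp36l2 reversed to 0.0343 with its next brightest probe set. With letter-suffix probe sets left out, Zfp36 and Zfp617 were not tested. Without an intensity trend 8 fell, 7 of them shared with the 9. Deviations of same-numbered arrays correlated at 0.12, -0.03 and 0.13, and 4 of 6 arrays correlated best with their own number. Whether the numbers pair the arrays was not settled. With the replicate number as a block 7 fell and 0 rose, and 6 were shared. The causes of these shifts were not tested. Dim signals limit the 92 genes under 50, for which no difference passed.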
